A study of Danio rerio with 4 samples.

Results

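Solitary CpGs are CpG dinucleotides with no other CpG near them. Here they are CpGs of the nuclear chromosomes of zebrafish whose nearest listed CpG lies at least 300 bp away on both sides, with at least 5 reads in each of 4 libraries. Of 51523 CpGs with such a position, 34423 had the reads and are the members described here. They make up 0.248% of the 13870319 CpGs that passed the same coverage minimum, out of 24222160 listed. They are set against 2794833 closely spaced CpGs, which have a neighbour within 20 bp on both sides and passed the same minimum. The choice of members used positions and coverage and no methylation value.

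The libraries are whole-genome bisulfite libraries of whole zebrafish embryos, with 1 library each at 2, 4, 8 and 24 hours post fertilization (hpf). The labels give no treatment, genotype or number of pooled embryos, and the stages are the groups. Bisulfite turns unmethylated cytosine into uracil, and each read over a CpG then counts as methylated or unmethylated. The methylation level of a CpG is the share of its reads that are methylated, with both strands joined. With 1 library per stage there is no spread between replicates, and every interval given covers counting error only.

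CpG methylation is symmetric, and after DNA replication the maintenance methyltransferase DNMT1, guided by UHRF1 to hemimethylated sites, copies it to the new strand. DNMT1 can act on several CpGs along one stretch of DNA. In human and mouse cells, CpGs with few others around them in late-replicating domains are known to lose methylation as cells divide. Zebrafish embryos keep a highly methylated genome through early development, and CpG islands, where CpGs lie close together, are mostly unmethylated in vertebrates.

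The median solitary CpG lay 350 bp from its nearer and 481 bp from its farther neighbour. In 2631 members the nearer neighbour was at least 500 bp away, and in 24 it was at least 1000 bp away. Many solitary CpGs followed each other, since 9824 of the 51523 listed ones (19.1%) stood in runs of at least 2 consecutive solitary CpGs, the longest of 9. Consecutive CpGs of a run are neighbours of each other, and CpGs of 1 library are not replicates. The mean coverage of the members was 35.4, 17.5, 16.2 and 18.9 reads at 2, 4, 8 and 24 hpf. At closely spaced CpGs it was 42.7, 34.9, 11.8 and 20.1 reads at 2, 4, 8 and 24 hpf. The ratio of solitary to closely spaced coverage was thus 0.829, 0.500, 1.37 and 0.938 at 2, 4, 8 and 24 hpf, and the part of this difference between libraries in the methylation values was not tested. Mitochondrial CpGs, a limit on incomplete conversion, carried at most 0.853% methylated reads in any library.

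Solitary CpGs were highly methylated at all 4 stages, and their mean level at 24 hpf was the lowest of the 4. The mean over the 34423 members was 86.2% ± 21.8, 85.2% ± 22.9, 86.0% ± 23.7 and 80.5% ± 23.2 at 2, 4, 8 and 24 hpf (SD over CpGs). The median level of a member was 94.3%, 93.8%, 94.7% and 87.5% at 2, 4, 8 and 24 hpf. Reads pooled over the members gave 80.3% methylated at 24 hpf (Wilson 95% interval 80.2% to 80.4%), against 85.8% at 8 hpf (85.7% to 85.8%). Counting error accounted for 6.31% of the variance over members at 2 hpf and 14.9% at 24 hpf, so most of the spread lay between CpGs. At closely spaced CpGs the mean was 88.3%, 88.3%, 89.0% and 87.3% at 2, 4, 8 and 24 hpf. Solitary minus closely spaced came to -2.10, -3.07, -2.99 and -6.77 points at 2, 4, 8 and 24 hpf. Solitary CpGs were lower in 4 of 4 libraries, where the two-sided exact sign-flip test gives p = 0.125, the smallest that 4 libraries allow.

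The sign of this difference before 24 hpf depended on the coverage minimum. With at least 1 read in all 4 libraries it was 1.19, 0.129 and 0.258 points at 2, 4 and 8 hpf, all above 0, and -3.87 at 24 hpf. With 5 reads needed only in the library measured it was 1.90 points at 2 hpf and 0.939 at 4 hpf, and stayed below 0 at 8 and 24 hpf. The minimum of 5 reads removed 21.4% of the solitary and 35.5% of the closely spaced CpGs that had a read in every library. The solitary CpGs that it removed averaged 78.9% at 2 hpf, against 74.7% for the closely spaced ones that it removed. Over all CpGs the level at the early stages was therefore not lower at solitary CpGs under every minimum.

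In methylated surroundings solitary CpGs were the less methylated kind at each stage. The surroundings of a CpG were taken as the CpGs 300 to 2000 bp away on either side, with the reads of the 4 libraries pooled, so that they are measured alike for both kinds. They held a median of 46 CpGs for solitary and 65 for closely spaced CpGs. In 20262 members with surroundings over 90% methylated, the mean level was 88.8%, 87.8%, 88.6% and 82.7% at 2, 4, 8 and 24 hpf. In 1790978 closely spaced CpGs with such surroundings it was 92.9%, 92.9%, 93.6% and 91.7% at 2, 4, 8 and 24 hpf. The difference was -4.09, -5.13, -5.04 and -8.93 points at 2, 4, 8 and 24 hpf (lower in 4 of 4 libraries, exact sign-flip p = 0.125). In the class at 90 to 95%, the surroundings alone, in reads pooled over the class, were at 90.1% at 24 hpf around solitary and at 90.8% around closely spaced CpGs. The sign of the difference was kept with 1 read in place of 5, where it was -4.39, -5.53, -5.47 and -9.53 at 2, 4, 8 and 24 hpf.

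In surroundings that were poorly methylated over the 4 libraries together, the order was the opposite one. The 430 solitary CpGs with surroundings under 25% had mean levels of 70.0%, 68.3%, 71.0% and 67.1% at 2, 4, 8 and 24 hpf. The 32039 closely spaced CpGs with such surroundings had 11.5%, 11.2%, 11.7% and 13.2% at 2, 4, 8 and 24 hpf. The solitary CpGs of this class were thus methylated in most reads and the closely spaced ones in few. Their surroundings were not alike at each stage. In reads pooled over the whole class, they had 16.4%, 11.4%, 22.9% and 22.5% at 2, 4, 8 and 24 hpf around the solitary CpGs. Around the closely spaced ones they had 7.60%, 7.82%, 19% and 42.2%. Deeply covered CpGs weigh most in these pooled values, and the typical level around 1 CpG was not taken by stage. At 24 hpf the comparison can therefore not be taken as one of equal surroundings. Across the 6 classes of surroundings, the 24 hpf mean of solitary CpGs ran between 67.1% and 84.7%, against 13.2% to 93.6% at closely spaced CpGs. Only 1.25% of the members had surroundings under 25%, and 89.1% had surroundings over 75%.

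**Figure D1:**
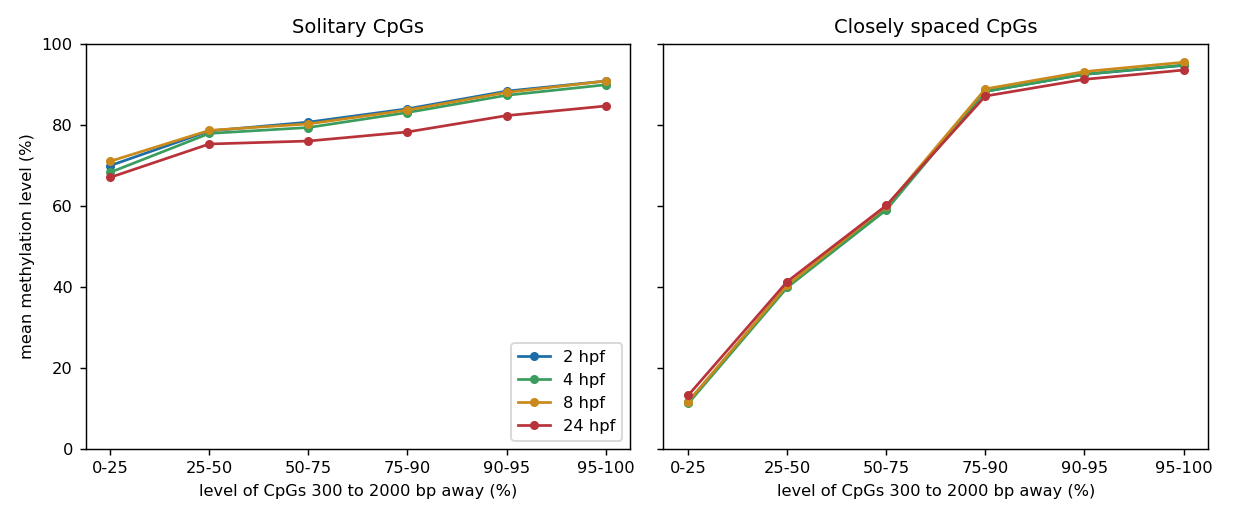
Mean methylation level (%, y axis) of solitary CpGs (left) and closely spaced CpGs (right) by the level of the CpGs 300 to 2000 bp away (%, x axis, pooled over the 4 libraries), with 1 line per stage. In surroundings under 25% solitary CpGs lie between 67.1% and 71.0% and closely spaced CpGs between 11.2% and 13.2%, and the solitary 24 hpf line lies below the other 3 solitary lines in each class.

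Between stages, solitary CpGs changed little up to 8 hpf and were lower at 24 hpf. Over the same members, the mean changed by -0.984 points for 4 against 2 hpf and by 0.737 for 8 against 4 hpf. For 24 against 8 hpf the change was -5.48 points, and for 24 against 2 hpf it was -5.73. At closely spaced CpGs the change for 24 against 8 hpf was -1.70 points, and over all covered CpGs it was -2.97. Of the members, 61.7% were lower at 24 than at 8 hpf and 23.3% were higher, against 44.0% lower and 22.7% higher among closely spaced CpGs. The level was equal in 14.9% of members but in 33.3% of closely spaced CpGs, so these shares are not directly comparable. With at least 20 reads in both libraries, 73.1% of members and 59.6% of closely spaced CpGs were lower. A difference of at least 25 points downward was found in 7.08% of the members, against 2.41% of closely spaced CpGs, and one of at least 25 points upward in 2.41%, against 2.05%. Over all covered CpGs these shares were 3.63% and 2.07%. The SD from counting error at 8 and 24 hpf was 7.58 and 8.94 points among members, against 6.94 and 6.46 among closely spaced CpGs. Its part in these shares was not tested. No test between stages was possible with 1 library each, and the libraries cannot be told apart from the stages.

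The change was spread over many members rather than held by a few. Among 6540 members with at least 20 reads at both stages, the median change for 24 against 8 hpf was -5.33 points and the middle part of the members, between the quartiles, ran from -11.4 to 0. Among 279790 closely spaced CpGs with such coverage the median was -2.22 points, with quartiles at -5.56 and 1.0. All CpGs with such coverage are over 3 times the 8 hpf median of 6 reads, a coverage limit used below. Without CpGs over that limit in any library, the mean change at solitary CpGs was -5.35 points. Solitary minus closely spaced, it was then -3.69 points. The change at solitary CpGs was similar for 5 to 9 reads (-5.87 points), 10 to 19 reads (-5.31) and at least 20 reads (-5.51) at 24 hpf. In surroundings over 90% it was -5.81 points, against -1.92 at closely spaced CpGs. These surroundings were chosen on the 4 libraries pooled and were themselves lower at 24 hpf. In the class at 90 to 95% they had 93.4% at 8 hpf and 90.1% at 24 hpf around solitary CpGs. Around closely spaced CpGs they had 93.4% and 90.8%, in reads pooled over the class. Solitary minus closely spaced, the change for 24 against 8 hpf was -3.78 points with the minimum of 5 reads and -4.13 with a minimum of 1 read, so its sign did not depend on the coverage minimum. On each of the 25 chromosomes the change was more negative at solitary CpGs, by between -4.73 points on chromosome 12 and -3.12 on chromosome 17. The chromosomes come from the same 2 libraries and are no replicates.

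**Figure D2:**
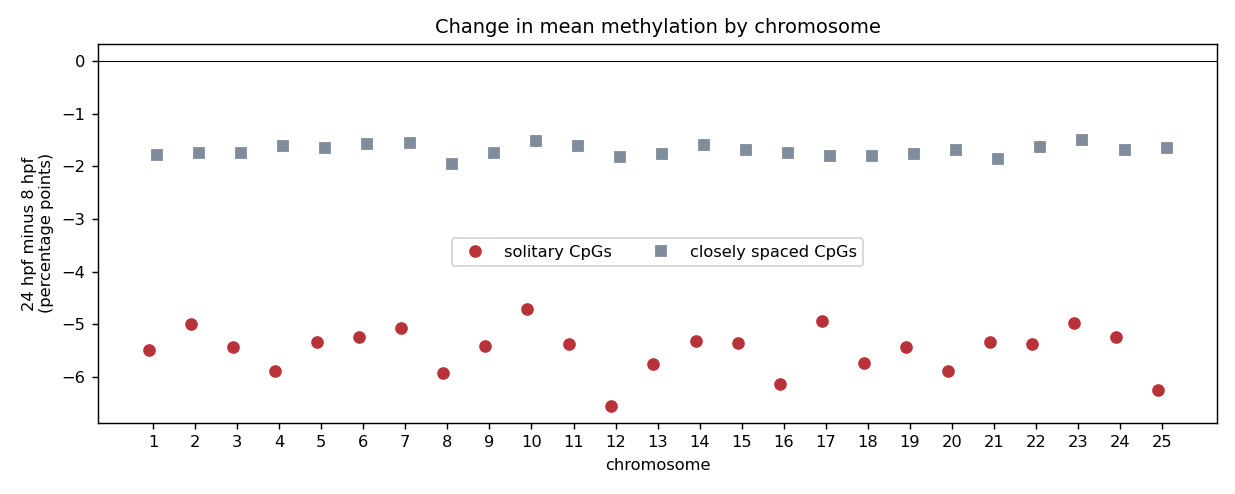
Change in mean methylation level for 24 against 8 hpf (percentage points, y axis) on each of the 25 chromosomes (x axis), at solitary CpGs (red circles) and closely spaced CpGs (grey squares). The solitary values lie between -6.55 and -4.70 points, and all closely spaced values lie above them, between -1.95 and -1.50.

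The change grew with the distance to the nearer CpG up to about the distance at which CpGs count as solitary here. For 24 against 8 hpf it was -1.99 points at CpGs with a neighbour 2 to 5 bp away, -3.48 at 21 to 50 bp, -4.56 at 51 to 100 bp and -5.02 at 101 to 150 bp. Beyond this it moved less, with -5.52 at 251 to 299 bp, -5.51 at 300 to 349 bp and -5.79 at 500 to 699 bp. Most of the difference in change between the 2 kinds was therefore reached by 150 bp, and solitary CpGs are the far end of a gradient. With a minimum of 1 read the values were -3.44 points at 21 to 50 bp, -4.58 at 51 to 100 bp, -5.11 at 101 to 150 bp and -5.62 at 300 bp or more. A neighbour on only 1 side went with a smaller change. CpGs with 1 neighbour within 20 bp and the other at 300 bp or more changed by -3.26 points, and those with 1 neighbour over 100 and under 300 bp away and the other at 300 bp or more by -5.30. By the number of CpGs between 300 and 2000 bp away, the 24 against 8 hpf change at solitary CpGs had no steady order. It was -5.69 points in 787 members with fewer than 20 such CpGs and -5.80 with 20 to 39. With 40 to 59 it was -5.30, with 60 to 79 it was -5.37 and with at least 80 it was -5.28. For 24 against 2 hpf the change at solitary CpGs was -6.29, -6.00, -5.71, -5.27 and -5.53 points in these classes in turn. At closely spaced CpGs the 24 against 8 hpf change was -2.13 points with fewer than 20 such CpGs and -1.44 with at least 80.

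The level itself also depended on distance, mainly among the most isolated members. Distances are between listed CpGs, and whether the longest of them span gaps in the assembly was not tested. At 24 hpf it was 81.1% at 300 to 349 bp, 79.9% at 400 to 499 bp, 77.8% at 500 to 699 bp, 68.8% in 236 members at 700 to 999 bp and 47.9% in 24 members at 1000 bp or more. At 2 hpf these last 2 classes had 74.7% and 57.7%. Fewer of the most isolated CpGs had the reads to be counted, with 30.8% of those listed at 1000 bp or more kept, against 67.5% at 300 to 349 bp. Their mean coverage at 24 hpf was 41.6 reads, against 18.3 at 300 to 349 bp, and the part of coverage in their levels was not tested. At the limit of 300 bp there was no step. The 8382 members with a nearer neighbour at 300 to 319 bp had 86.7%, 85.8%, 86.5% and 81.0% at 2, 4, 8 and 24 hpf, and the 11294 CpGs just outside, at 280 to 299 bp, had 86.5%, 85.6%, 86.4% and 80.8% at these stages.

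**Figure D3:**
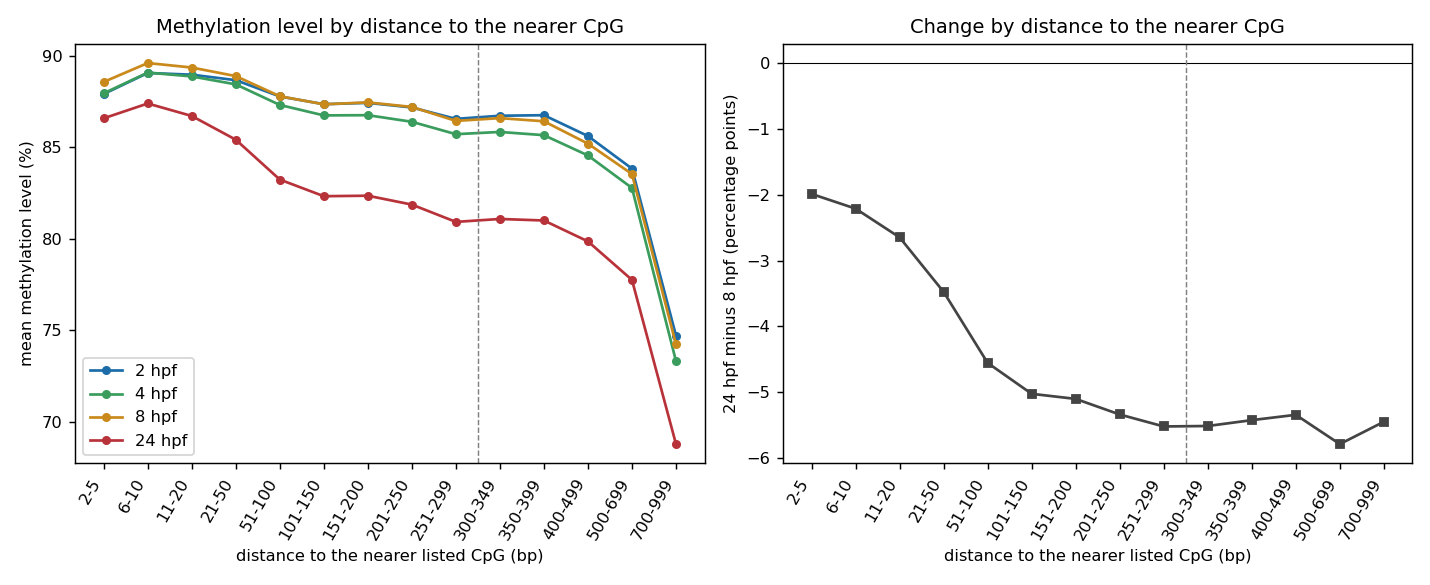
Left, mean methylation level (%, y axis) of CpGs by the distance to their nearer listed CpG (bp, x axis), with 1 line per stage. Right, the change for 24 against 8 hpf (percentage points) on the same x axis, with the dashed line at the limit of 300 bp in both panels and the 24 members at 1000 bp or more left out. The change is -1.99 points at 2 to 5 bp and -5.02 at 101 to 150 bp, and stays between -5.79 and -5.34 at the 5 distances beyond the dashed line.

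The members at 24 hpf were shifted toward partial methylation rather than to the unmethylated state. The share of members over 75% methylated was 84.8%, 81.8%, 83.8% and 76.5% at 2, 4, 8 and 24 hpf. The share at 25 to 75% was 10.8%, 13.5%, 10.9% and 18.0% at 2, 4, 8 and 24 hpf (Wilson 95% interval at 24 hpf 17.6% to 18.4%). The share under 25% was 4.38%, 4.70%, 5.31% and 5.53% at 2, 4, 8 and 24 hpf. Among closely spaced CpGs the share at 25 to 75% was 6.18%, 6.36%, 6.30% and 7.0% at 2, 4, 8 and 24 hpf. Since shares at the ends of the scale depend on coverage, every CpG was also thinned to 5 reads in every library. The intermediate share of members was then 9.23%, 10.7%, 8.63% and 15.4% at 2, 4, 8 and 24 hpf. At 5 reads, 64.3%, 62.7%, 65.4% and 47.6% of members at 2, 4, 8 and 24 hpf had no unmethylated read. At closely spaced CpGs thinned alike, this share was 72.0%, 72.1%, 75.2% and 67.9% at 2, 4, 8 and 24 hpf.

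**Figure D4:**
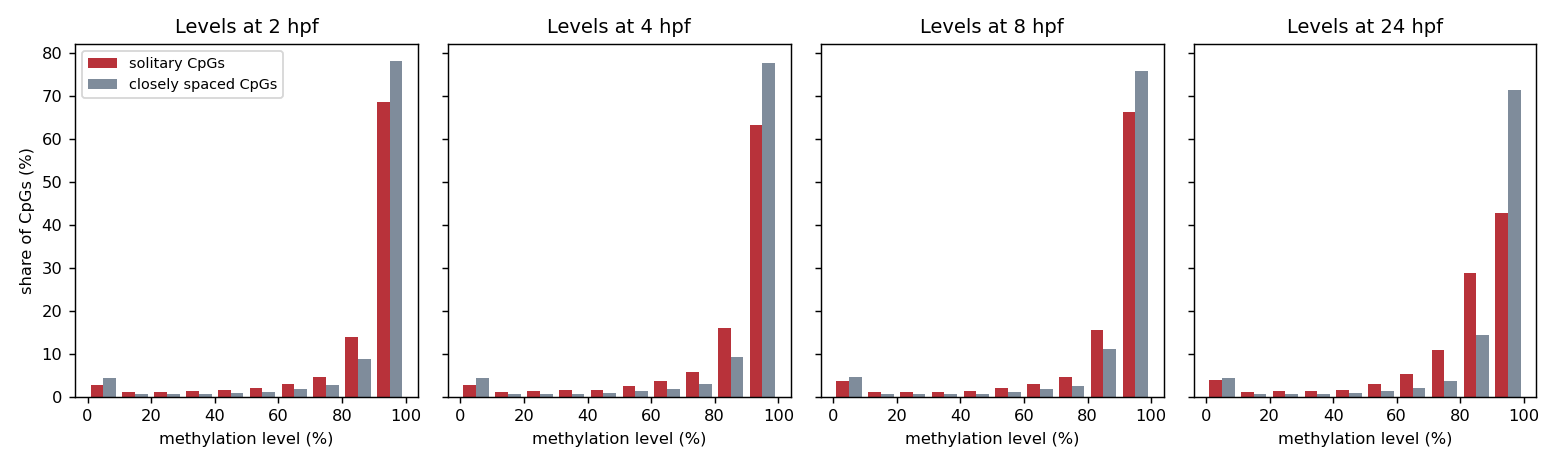
Share of CpGs (%, y axis) in each 10-point class of methylation level (%, x axis), with solitary CpGs in red and closely spaced CpGs in grey, and 1 panel per stage at the coverage of each library. Solitary CpGs stand lower than closely spaced CpGs in the top class, 90 to 100%, in all 4 panels, most of all at 24 hpf. There the top class holds 42.8% of solitary and 71.5% of closely spaced CpGs. Over 75% methylated at 24 hpf were 76.5% of solitary and 87.5% of closely spaced CpGs.

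Individual members mostly kept their level from library to library. Of the 34423 members, 23927 (69.5%) were over 75% in all 4 libraries, against 82.9% of closely spaced CpGs. A set of 1292 members (3.75%) was at 25 to 75% in all 4, against 1.93% of closely spaced CpGs. Another 1068 members (3.10%, Wilson 95% interval 2.92% to 3.29%) were under 25% in all 4, against 4.49% of closely spaced CpGs. There were 169 members (0.491%) over 75% in 1 library and under 25% in another, against 0.245% of closely spaced CpGs. Thinned to 5 reads, the shares of members were 66.6% over 75% in all 4, 0.706% at 25 to 75% in all 4, 3.43% under 25% in all 4 and 3.22% over 75% in 1 and under 25% in another. At closely spaced CpGs thinned alike they were 79.7%, 0.349%, 4.57% and 1.69%, so that the shares depend on depth, while the order of the 2 kinds was the same in these 4 shares. Across members, Pearson's r of the levels of a pair of libraries was between 0.813 (4 and 24 hpf) and 0.898 (2 and 8 hpf), against 0.891 to 0.946 at closely spaced CpGs. These are correlations over CpGs, which share their library and differ in coverage, and are given as a description.

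Most solitary CpGs that were low in all 4 libraries stood in methylated surroundings, though less often than members in general. Whether the embryos carried a T in place of the C at such positions, which would also count as unmethylated, was not tested. The same limit applies to the single CpGs named below. Of 1065 members under 25% in all 4 libraries whose surroundings were read, 78.4% had surroundings over 75% methylated and 4.60% had surroundings under 25%, against 89.1% and 1.25% of all members. Among 810 of them with at least 20 pooled reads at both neighbours, both neighbours were over 75% methylated in 57.4% and both under 25% in 4.20%, against 74.8% and 0.476% of all members with such neighbours. Between a solitary CpG and its nearer neighbour Pearson's r of the levels was 0.137 over 26762 members on the reads of all 4 libraries. A solitary CpG low beside a high neighbour (809) was about as frequent as a high one beside a low neighbour (846). Both were low in 147 pairs. Where the nearer neighbour was itself a member, the same pair could enter these counts from both sides.

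The 3 members of this class with the most reads, within 3 times the median coverage of each library, were under 25% in every library. For 2 of them the counting error reached above 25% in some libraries. The CpG at chr20:2005907-2005908 (Zv9, as are all positions here), with neighbours 527 and 887 bp away, had no methylated read among 80, 13, 17 and 24 reads at 2, 4, 8 and 24 hpf. Taking 3 counts as the most that a count of 0 allows, as in each such limit here, the level could be up to 3.75%, 23.1%, 17.6% and 12.5% at 2, 4, 8 and 24 hpf. At chr8:45746423-45746424 the level was 13.8%, 9.09%, 12.5% and 14.8% at 2, 4, 8 and 24 hpf, with 80, 44, 8 and 27 reads. Its upper Wilson bound was 47.1% at 8 hpf and 32.5% at 24 hpf. At chr5:3352674-3352675 the level was 13.0% of 69 reads (2 hpf), 11.5% of 52 (4 hpf), 0 of 9 (8 hpf) and 11.8% of 17 (24 hpf), where the 0 of 9 allows up to 33.3%. The upper Wilson bound there at 24 hpf was 34.3%. At the other end, 940 members (2.73%) had no unmethylated read in any library, a share of 23.1% when thinned to 5 reads. Among them chr16:46578573-46578574 was methylated in all of 61, 24, 13 and 30 reads at 2, 4, 8 and 24 hpf, which puts the lower Wilson bound at 94.1% at 2 hpf and at 88.6% at 24 hpf. So too chr8:33330461-33330462 had 67, 21, 10 and 25 reads and chr8:28071932-28071933 had 56, 22, 17 and 23 reads at the 4 stages, all methylated.

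The 3 members most isolated from other listed CpGs had low or intermediate levels. The CpG at chr8:29407782-29407783, with its nearer neighbour 2669 bp away, had 58.4% of 77 reads (2 hpf), 52.6% of 19 (4 hpf), 50% of 6 (8 hpf) and 18.9% of 53 (24 hpf). Its 24 against 2 hpf difference passed Fisher's exact test on the reads of the 2 libraries (adjusted p = 0.00862). The CpG at chr10:2496758-2496759, 2146 bp from its nearer neighbour, had 36.5% of 74 reads, 43.8% of 16, 16.7% of 18 and 24.0% of 50 at the 4 stages, and passed in no pair. The CpG at chr15:3549492-3549493, 1783 bp from its nearer neighbour, was at 4.76% of 42 reads (2 hpf), 0 of 14 (4 hpf), 0 of 76 (8 hpf) and 0.794% of 126 (24 hpf). The counts of 0 allow up to 21.4% at 4 hpf and 3.95% at 8 hpf. All 3 had over 3 times the 24 hpf median of 10 reads, with 53, 50 and 126, so that the coverage limit used below removes them, the call at chr8:29407782-29407783 included.

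Single solitary CpGs that differed between 2 libraries were few. Fisher's exact test (two-sided, Benjamini-Hochberg adjusted over all 13870319 covered CpGs, adjusted p under 0.05) compares the reads of 2 libraries and not 2 stages. For 4 against 2 hpf, 3 members were lower and 1 was higher, where the share over all covered CpGs is 0.00559% lower and 0.00338% higher. For 8 against 4 hpf, 3 were lower and 2 higher, beside 0.00348% lower and 0.00298% higher over all. For 24 against 8 hpf, 13 members were lower and 7 higher, beside 0.0238% and 0.0144% over all, so the lower share of members was 0.0378% and the higher one 0.0203%. For 24 against 2 hpf, 79 members (0.229%) were lower and 8 (0.0232%) were higher, beside 0.129% lower and 0.0367% higher over all covered CpGs. At closely spaced CpGs 0.0955% were lower and 0.0625% higher in this pair.

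These counts rested on the deeper members. Those lower in 24 against 2 hpf had a median of 61 reads at 2 hpf and 34 at 24 hpf, against 31 and 16 in all members. Without CpGs over 3 times the median coverage of any library, which removes 10746 members, the lower count was 10 for 24 against 2 hpf and 0 for 24 against 8 hpf. The medians behind this limit are over all listed CpGs, with 6 reads at 8 hpf, where members had a median of 14. At 8 hpf the limit thus lies nearer to the usual depth of members than to that of listed CpGs, and it does not mark unusual members. The share called over all CpGs was not taken under this limit. With every CpG thinned to the lowest of its 4 coverages, 5 of 34423 members were lower for 24 against 2 hpf and 6 for 24 against 8 hpf. Of all 13870319 covered CpGs thinned alike, 633 were lower for 24 against 2 hpf and 1086 for 24 against 8 hpf. At this equal depth an unadjusted p under 0.05 with a lower level at 24 hpf was found in 1.86% of members for 24 against 2 hpf, against 0.416% of closely spaced and 0.648% of all CpGs. For 24 against 8 hpf it was found in 1.71% of members, against 0.447% of closely spaced and 0.680% of all CpGs. The mean coverage after thinning was 12.8 reads at solitary, 11.2 at closely spaced and 11.3 at all CpGs. In total 104 members (0.302%) were called in at least 1 pair, against 0.187% of closely spaced and 0.193% of all covered CpGs, and 9 (0.0261%) were lower at 24 hpf against both 8 and 2 hpf, against 0.0130% of closely spaced and 0.0163% of all. These shares are at the coverage of each library, and the limits on depth above hold for them too.

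The members called were chosen for a large difference, and their surroundings, which were not, are given beside it as a description. Of 77 lower members for 24 against 2 hpf whose surroundings were read in both libraries, 71 had surroundings that differed by under 10 points, and the surroundings were also lower at 24 hpf in 71. The median level of these members was 43.9% at 24 hpf, against 87.0% at 2 hpf. The median level of their surroundings was 88.4% at 24 hpf, against 92.5% at 2 hpf. For the 13 lower members for 24 against 8 hpf the median was 10.3% at 24 hpf, against 85.3% at 8 hpf, in 11 of them the surroundings differed by under 10 points, and in 12 the surroundings were also lower. These counts were not taken over all members. Over all members in the class of surroundings at 90 to 95%, pooled reads of the surroundings gave 93.2%, 93.4% and 90.1% at 2, 8 and 24 hpf. From 2 to 24 hpf they were also lower in the other classes over 75%, and higher in those under 75%. Lower surroundings are thus not shown as a trait of the called members.

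The member with the smallest p in both comparisons with 24 hpf was at chr9:41796396-41796397, with neighbours 445 and 353 bp away. It had 57 methylated of 95 reads at 2 hpf (60%), 19 of 40 at 4 hpf (47.5%), 42 of 52 at 8 hpf (80.8%) and 4 of 43 at 24 hpf (9.30%, Wilson 95% interval 3.68% to 21.6%). The adjusted Fisher's exact p was 1.24e-07 for 24 against 8 hpf and 5.45e-05 for 24 against 2 hpf. Only the 24 hpf library was low here. The coverage of this CpG at 2, 8 and 24 hpf was over the coverage limit used above, so that this limit removes it. On the same chromosome, chr9:28213959-28213960 went the other way, with 24 of 25 reads (96.0%) at 24 hpf, against 2 of 21 (9.52%) at 8 hpf (adjusted Fisher's exact p = 3.42e-05). Its levels at 2 and 4 hpf were 60% of 55 reads and 50% of 20. The coverage limit removes this CpG too, by its 21 reads at 8 hpf. The strongest higher call for 24 against 2 hpf was chr19:46607475-46607476, with an adjusted Fisher's exact p of 0.00393. It had 37.5% of 48 reads (2 hpf), 55.6% of 18 (4 hpf), 63.6% of 11 (8 hpf) and 92.6% of 27 (24 hpf). This CpG is within the coverage limit in each library.

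None of the 4 strongest calls between the earlier libraries held its level at 24 hpf. They were chosen as the most extreme of all members between those libraries, so this says nothing about members in general. At chr21:12966430-12966431 the level was 88.5% of 96 reads (2 hpf), 44.4% of 36 (4 hpf), 83.3% of 30 (8 hpf) and 100% of 17 (24 hpf), with an adjusted Fisher's exact p of 0.0158 for 4 against 2 hpf. At chr8:6704976-6704977 it was 11.1% of 81 reads (2 hpf), 49.1% of 55 (4 hpf), 8.89% of 45 (8 hpf) and 14.0% of 43 (24 hpf), with an adjusted Fisher's exact p of 0.0255 for 4 against 2 hpf. By level both stood apart in the 4 hpf library alone, though neither was called for 8 against 4 hpf. At chr17:45047553-45047554 the level was 43.1% of 65 reads (2 hpf), 82.4% of 17 (4 hpf), 0 of 23 (8 hpf) and 47.4% of 19 (24 hpf), with an adjusted Fisher's exact p of 0.00186 for 8 against 4 hpf. The 0 of 23 allows up to 13.0%. At chr9:40040746-40040747 it was 48.6% of 35 reads (2 hpf), 20.8% of 24 (4 hpf), 87.5% of 32 (8 hpf) and 10.3% of 29 (24 hpf), with an adjusted Fisher's exact p of 0.0147 for 8 against 4 hpf and 2.55e-05 for 24 against 8 hpf. These 4 CpGs, with 30, 45, 23 and 32 reads at 8 hpf, were all over the coverage limit used above in that library, which removes them. With 1 library per stage, a single deviating library cannot be told apart from a single deviating stage.

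**Figure D5:**
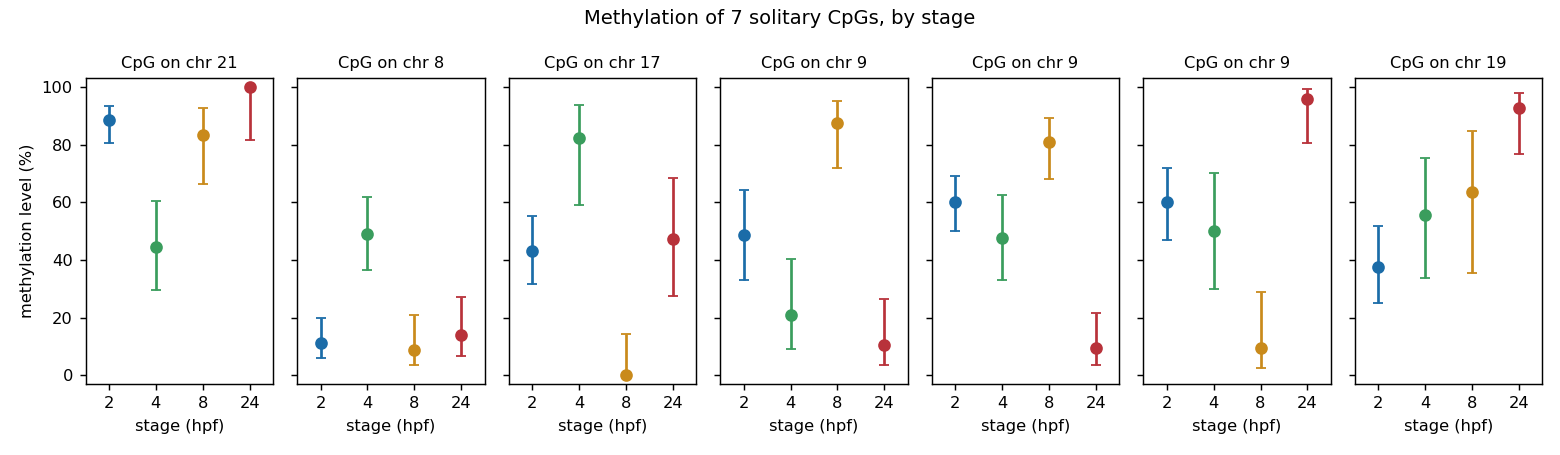
Methylation level (%, y axis) by stage (hpf, x axis) of the 7 solitary CpGs with the smallest Fisher p in a direction for 1 of the 4 pairs of stages, named by chromosome. Points are single libraries and bars are Wilson 95% intervals, which cover counting error only and reach 14.3% for the 0 of 23 reads at 8 hpf in the third panel. The fifth panel is the CpG at 9.30% at 24 hpf, against 80.8% at 8 hpf. Of the 7, only the CpG on chromosome 19 is within 3 times the median coverage of every library, a median over all listed CpGs.

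Solitary CpGs were found on all 25 chromosomes, at between 0.169% of the covered CpGs on chromosome 22 and 0.291% on chromosome 1. Their mean level at 24 hpf ran between 78.7% on chromosome 8 and 82.5% on chromosome 14, and at 2 hpf between 84.4% on chromosome 2 and 88.0% on chromosome 14. Members under 25% in all 4 libraries were spread unevenly, with 1.85% of members on chromosome 14 and 5.63% (79 CpGs) on chromosome 2, where the median chromosome had 2.80%. The mean level of members was lower at 24 than at 8 hpf on each chromosome, between -6.55 points on chromosome 12 and -4.70 on chromosome 10.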

How the data were processed

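The 4 libraries of whole embryos, 1 per stage, were analysed together. The authors mapped the bisulfite reads to the zebrafish assembly Zv9 (danRer 7). They deposited for each CpG the coverage, as reads over both strands and not normalized, and the fraction of these reads that was methylated. The aligner was not given in the sources used here, nor was the handling of duplicates. Methylated reads were taken as the fraction times the coverage, which was whole within 0.00124 reads. The median coverage of listed CpGs was 27, 19, 6 and 10 reads at 2, 4, 8 and 24 hpf. Among members the SD from counting error was largest at 24 hpf, with 8.94 points, against 7.58 at 8 hpf. At closely spaced CpGs it was largest at 8 hpf, with 6.94 points, against 6.46 at 24 hpf.

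Distances were taken between listed CpGs of a chromosome, and CpGs at a chromosome's end were not counted as solitary. Levels are means of the fractions, and a CpG needed 5 reads or more in every library. Surroundings needed at least 20 pooled reads, and their levels are from pooled reads and not means of fractions. For a class of surroundings, the level by stage is from the reads of the whole class. The 4 pairs of stages were compared per CpG with two-sided Fisher's exact tests with Benjamini-Hochberg adjustment over all covered CpGs, and solitary with closely spaced CpGs by exact sign flips over the 4 libraries. Single CpGs named are the 3 most isolated, the one with the smallest p in each direction of each pair, and the 3 with the most reads among those under 25% in all 4 libraries and among those with no unmethylated read, the last 2 kinds without CpGs over 3 times a library's median coverage. The members, limits and lists were chosen with earlier results of these data known. Alternatives varied the coverage minimum and limit, the distances, pooling, thinning, the surroundings and the p threshold. The scripts were tested on simulated data. No Zv9 genome or annotation was used here, so that positions carry no gene and no bases are shown. Sequence variants at CpGs, and gaps in the assembly between listed CpGs, were not looked for. The software was matplotlib 3.10.9, numba 0.67.0, scipy 1.17.1, pandas 2.3.3 and numpy 2.4.6 under Python 3.11.15.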

Additional observations from a re-analysis of the deposited data

How the results depend on the processing

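Solitary CpGs were less methylated than closely spaced ones at 24 hpf under every alternative tried, and at each stage in highly methylated surroundings under the alternatives tried there. Before 24 hpf the overall difference had the opposite sign at the lower coverage minimums given next. The change for 24 against 8 hpf, solitary minus closely spaced, and the settings with 20 reads in both libraries were chosen after seeing the data, as was the minimum of 1 read within surroundings. Depth limits the calls of single CpGs, which depended on the coverage limit and on thinning. No test between stages was possible because there is 1 library per stage. Solitary and closely spaced CpGs were compared within each library. The cause of the shifts below was not tested, except that shares at 5 reads come from fewer reads.

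With at least 1 read in all 4 libraries, the mean levels at 2, 4, 8 and 24 hpf were 84.7%, 83.6%, 84.3% and 78.7%, and the difference from closely spaced CpGs was 1.19, 0.129 and 0.258 points at 2, 4 and 8 hpf. The changes were -1.10 points (4 against 2 hpf), -5.62 (24 against 8 hpf) and -5.97 (24 against 2 hpf), and -4.13 for 24 against 8 hpf as solitary minus closely spaced. The shares under 25% were 5.51%, 6.05%, 7.03% and 7.41%, those at 25 to 75% were 12.3%, 15.2%, 12.3% and 19.7%, and those over 75% were 82.1%, 78.7%, 80.7% and 72.9%, with 3.75% under 25% in all 4 libraries.

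With at least 10 reads in all 4 libraries, the levels were 87.0%, 85.8%, 86.6% and 81.1%, the changes -1.14 points (4 against 2 hpf) and -5.85 (24 against 2 hpf), and solitary minus closely spaced -3.63 for 24 against 8 hpf. The shares were 3.81%, 4.02%, 4.61% and 4.68% under 25%, 10.1%, 13.0%, 10.2% and 16.9% at 25 to 75%, and 86.1%, 83.0%, 85.2% and 78.4% over 75%, with 2.72% under 25% in all 4. In this setting 23 members were lower for 24 against 8 hpf and 4 higher for 8 against 4 hpf. The share called over all CpGs was not taken in this setting.

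With 5 reads needed only in the library measured, the levels were 84.9%, 84.1%, 85.7% and 79.8%, and the difference from closely spaced CpGs was 1.90 points at 2 hpf and 0.939 at 4 hpf. The changes were -0.864 points (4 against 2 hpf), 1.57 (8 against 4 hpf), -5.88 (24 against 8 hpf) and -5.18 (24 against 2 hpf), and solitary minus closely spaced -3.97. In this setting each stage has its own set, with 43408, 40816, 37877 and 39734 solitary CpGs at 2, 4, 8 and 24 hpf. These values are thus differences between unlike sets and not changes over the same CpGs. With reads pooled over CpGs, the levels were 87.0%, 84.5%, 85.8% and 80.3%, the changes -2.52 points (4 against 2 hpf), 1.28 (8 against 4 hpf) and -6.66 (24 against 2 hpf), and solitary minus closely spaced -4.37. With 20 reads in both libraries, the changes were -1.12 points (4 against 2 hpf), -5.73 (24 against 8 hpf) and -5.85 (24 against 2 hpf), and solitary minus closely spaced -3.64. The CpGs behind the 24 against 8 hpf values of this setting are all over 3 times the 8 hpf median coverage.

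With neighbours at 200 bp or more, the levels were 86.8%, 86.0%, 86.8% and 81.3%, and the changes -0.844 points (4 against 2 hpf) and -5.48 (24 against 2 hpf). The shares under 25% were 4.46%, 5.03% and 5.29% at 4, 8 and 24 hpf, and over all 4 stages 10.1%, 12.6%, 10.1% and 16.6% at 25 to 75% and 85.7%, 83.0%, 84.9% and 78.2% over 75%. With neighbours at 500 bp or more, the levels were 82.8%, 81.7%, 82.5% and 76.7%, and the changes -1.10 points (4 against 2 hpf), -5.77 (24 against 8 hpf) and -6.10 (24 against 2 hpf). The shares were 6.88%, 7.03%, 7.34% and 8.40% under 25%, 12.9%, 16%, 13.6% and 21.4% at 25 to 75%, and 80.2%, 77.0%, 79.0% and 70.2% over 75%, with 5.21% under 25% in all 4.

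Without CpGs over 3 times the median coverage, the levels were 85.5%, 86.1% and 80.8% at 4, 8 and 24 hpf, the changes -0.798 points (4 against 2 hpf) and -5.49 (24 against 2 hpf), and the shares under 25% 4.93%, 5.65% and 5.77% at these 3 stages, with 13.1% at 25 to 75% at 4 hpf. Thinned to 5 reads, the shares under 25% were 5.86%, 6.09%, 6.44% and 6.91%, those at 25 to 75% were 9.23%, 10.7%, 8.63% and 15.4%, and those over 75% were 83.2%, 84.9% and 77.7% at 4, 8 and 24 hpf, with 3.43% under 25% in all 4.

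The called members, lower and higher for 4 against 2, 8 against 4, 24 against 8 and 24 against 2 hpf in turn, were 0 and 0, 1 and 0, 6 and 4, and 35 and 2 at an adjusted p under 0.01. They were 0 and 0, 0 and 0, 0 and 2, and 10 and 2 without CpGs over 3 times the median coverage. At equal depth they were 0 and 0, 0 and 1, 6 and 2, and 5 and 0. Of all 13870319 covered CpGs at equal depth, the called ones were 3 and 0, 73 and 74, 1086 and 466, and 633 and 486. At an adjusted p under 0.01 and under the coverage limit, counts over all CpGs were not taken. With neighbours at 500 bp or more the called members were 1 and 0, 0 and 0, 2 and 1, and 7 and 0, among fewer members. These are a part of the main calls, whose shares over all covered CpGs are given above. At an unadjusted p under 0.05, Fisher's test on the full reads gave 831 and 202, 420 and 516, 1230 and 320, and 3115 and 235. As shares these are 2.41% and 0.587%, 1.22% and 1.5%, 3.57% and 0.930%, and 9.05% and 0.683% of members, against 1.80% and 1.39%, 1.14% and 0.591%, 0.724% and 0.706%, and 3.14% and 0.891% of closely spaced CpGs. The coverage of the 2 kinds differed in these full reads, and the shares over all CpGs were not taken.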
